A study of Mus musculus with 35 samples.

Results

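The 9 genes described here are transcription factors and cofactors that give brown fat cells their identity: Prdm16, Ebf2, Ppargc1a, Irf4, Zfp516, Foxc2, Klf11, Ehmt1 and Cebpb. They were chosen by name as known regulators of brown adipocytes, by a rule that uses no measured value but with earlier results of these data known, and all 9 were found among the 18947 genes of the authors' deposited table. Messenger RNA had been sequenced in 4 libraries of brown fat from between the shoulder blades (iBAT) and in 4 of the white fat of the epididymis (eWAT), taken from male C57BL/6J mice 15 weeks old (the sample labels shorten the strain to C57BL/6). A second set of 18 libraries held microRNAs (miRNAs) from mice 13 weeks old, 3 for each of 6 depots; beside iBAT and eWAT these carry the names mWAT, iWAT, aWAT and cWAT. Apart from cold housing, no tissue received a treatment per the labels. Inguinal pads of some mice came from animals kept at 4 °C for 1 week. No label says which depot name these pads carry, so the white fat libraries may include pads from cold-housed mice. Nothing in the labels states that libraries of 1 depot came from separate animals, so p-values measure the spread between libraries, which may be technical. Another 9 samples, which captured RNA bound to Argonaute proteins, were not analysed here.

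Brown adipocytes burn fatty acids to make heat through the mitochondrial uncoupling protein UCP1. They share a developmental history with skeletal muscle, and PRDM16 is the cofactor best known for steering precursor cells towards the brown and away from the muscle fate. It works with DNA-binding partners such as C/EBP beta and PPAR gamma and with the histone methyltransferase EHMT1, while EBF2 opens brown-selective sites for PPAR gamma. PGC-1 alpha, the product of Ppargc1a, is a coactivator that drives the making of mitochondria, and cold raises it through adrenergic receptors and cyclic AMP.

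Of the 9 regulators, 5 rose in iBAT, 1 fell, and the remaining 3 did not reach an adjusted p under 0.05 (a call) in the authors' deposited table. Over all genes, 48% were called, 20.9% as higher and 27.1% as lower, so a call by itself was common and the sizes carry more. The median log2 fold change of the 9 regulators was 2.06, and that of all genes was -0.10. The 5 regulators that were higher lay between 2.06 and 3.58 on the log2 scale. Fold changes are iBAT over eWAT throughout, a direction read from Ucp1 and leptin, and errors are the standard errors (SE) of the authors' deposited table. The base mean of a gene is its mean count over all libraries after division by size factors. Levels given for each tissue were computed from the base mean and the fold change, taking the fold as the ratio of the means of 2 groups of equal size. Values of single mRNA libraries were not at hand, so which libraries are high or low, and whether the tissues overlap, cannot be given for these genes. In whole tissue, fewer cells of a type and less RNA per cell cannot be told apart.

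**Figure D1:**
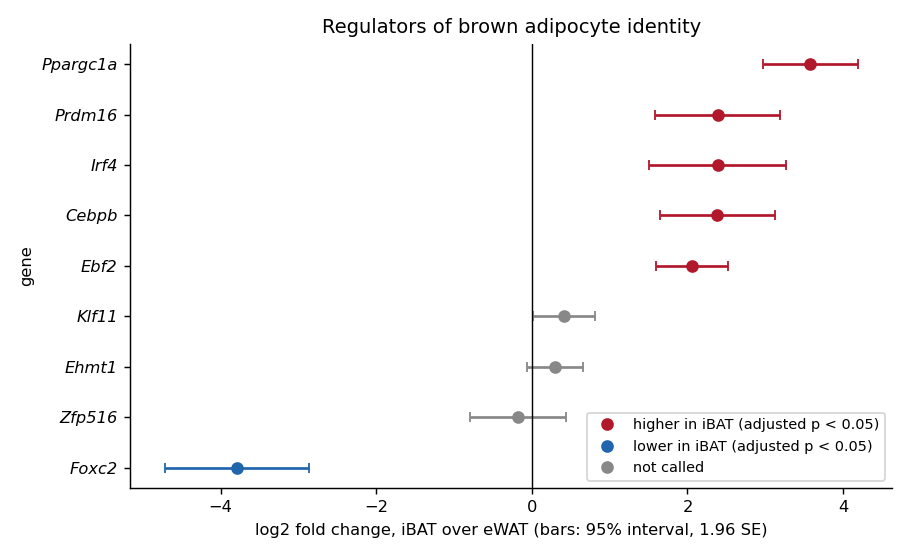
Log2 fold change of each regulator, iBAT over eWAT, from the authors' deposited table, with bars for the 95% interval. Ppargc1a stands furthest right at 3.58, Prdm16, Irf4, Cebpb and Ebf2 lie between 2.06 and 2.39, the bars of Zfp516 and Ehmt1 cross 0, and Foxc2 stands alone on the left at -3.79.

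Ppargc1a (ENSMUSG00000029167; GRCm38 chromosome 5, 51454249 to 52115853) had the largest rise among the regulators. Its log2 fold change of 3.58 ± 0.31 in the authors' deposited table (adjusted p = 6.46e-30) corresponds to an 11.9-fold higher level, with a 95% interval of 7.82 to 18.2. The base mean was 1688, which the fold divides into about 3116 normalized counts in iBAT and 261 in eWAT. Of all genes, 1.49% had a higher fold change. The coactivator also has a skeletal muscle role, and muscle markers moved the same way, as given further on.

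Prdm16 (ENSMUSG00000039410; chromosome 4, 154316122 to 154637360), Irf4 (ENSMUSG00000021356; chromosome 13, 30749233 to 30766981) and Cebpb (ENSMUSG00000056501; chromosome 2, 167688915 to 167690432) had nearly 1 and the same fold change. The authors' deposited table put Prdm16 at 2.39 ± 0.41 (adjusted p = 5.37e-09), a 5.24-fold higher level with an interval of 3.01 to 9.14. Irf4, a factor that cold induces in brown fat and that partners PGC-1 alpha, stood at 2.39 ± 0.45 there (adjusted p = 1.06e-07), from the authors' deposited table, or 5.24-fold with an interval of 2.84 to 9.66. Cebpb, whose product forms a complex with PRDM16, stood at 2.39 ± 0.38 (adjusted p = 3.56e-10) in the same authors' deposited table, or 5.23-fold with an interval of 3.13 to 8.72. The 3 values differ by far less than their errors. Computed levels were 1407 in iBAT against 268 in eWAT for Prdm16, 2321 against 443 for Irf4 and 3766 against 721 for Cebpb. These are counts not scaled to transcript length, so they compare tissues for 1 gene and not genes with each other.

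Ebf2 (ENSMUSG00000022053; chromosome 14, 67233292 to 67430952), which marks brown precursor cells, rose by 2.06 ± 0.24 (adjusted p = 1.38e-17 in the authors' deposited table). This is a 4.16-fold higher level with an interval of 3.01 to 5.74, and the computed levels were 5180 in iBAT and 1246 in eWAT. Its fold was the smallest of the 5 that rose and had the smallest SE among them.

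Foxc2 (ENSMUSG00000046714; chromosome 8, 121116171 to 121118895) went the other way. This forkhead factor gives white fat brown features when it is forced on in adipocytes, and it is also a regulator of lymphatic vessels. In the authors' deposited table its log2 fold change was -3.79 ± 0.47 (adjusted p = 1.8e-15), a 13.8-fold lower level in iBAT, with a 95% interval of the log2 fold change from -4.71 to -2.87. Its base mean was 51.9, the lowest of the 9, with computed levels of 7.0 in iBAT and 96.9 in eWAT. Lymphatic endothelial markers were lower in iBAT as well: the authors' deposited table called 6 of 8 as lower and left 2 without a call, at a median of -1.82. Among them were Ccl21a, a lymphatic chemokine (-4.43 ± 0.42), Mmrn1 (-3.78 ± 0.59), Pdpn, which mesothelial and stromal cells share (-2.92 ± 0.31), and Lyve1, a hyaluronan receptor also found on macrophages (-2.18 ± 0.23), per the authors' deposited table. The lymphatic transcription factor Prox1 stood at -0.93 ± 0.42 (adjusted p = 0.0313), a call lost when the p-value was taken from fold change over SE (adjusted p = 0.0574), and the receptor gene Flt4 was not called at -0.16 ± 0.22, both from the authors' deposited table. The part of lymphatic cells in the Foxc2 value was not tested.

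Klf11, Ehmt1 and Zfp516 were not called. Klf11 (ENSMUSG00000020653; chromosome 12, 24651371 to 24662782), a zinc finger factor that works beside PPAR gamma at brown genes, stood at 0.41 ± 0.20 in the authors' deposited table (adjusted p = 0.0707), with a 95% interval of 0.02 to 0.81. When all fold changes were centred on the median gene, Klf11 moved to 0.51 and passed (adjusted p = 0.0278, from fold change over SE of the authors' deposited table). Ehmt1 (ENSMUSG00000036893; chromosome 2, 24790769 to 24919643), which stabilises PRDM16, stood at 0.30 ± 0.19 (adjusted p = 0.172, authors' deposited table), with an interval of -0.07 to 0.66. Zfp516 (ENSMUSG00000058881), a cold-inducible activator of Ucp1, stood at -0.18 ± 0.32 (adjusted p = 0.656, authors' deposited table), with an interval of -0.80 to 0.44. The upper ends of the 3 intervals, on the log2 scale, are all below the lower end of every regulator that rose, the lowest of which is 1.51 for Irf4. Missing the threshold does not show that these 3 genes are equal in both tissues.

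Each regulator was set beside the rest of its gene family, a comparison of fold changes only. In the interferon regulatory factor family, Irf4 rose while 7 of its 8 measured paralogues were called lower and none higher in the authors' deposited table. With a minimum log2 fold change of 1 added, 4 of the 7 were counted. The others are best known for interferon and immune responses: Irf5 stood at -1.74 ± 0.24 (adjusted p = 3.18e-12), Irf8, a factor of myeloid and B cells, at -1.40 ± 0.16, Irf7 at -1.01 ± 0.21 and Irf1 at -0.55 ± 0.12 in the authors' deposited table. Irf2 was not called at 0.07 ± 0.24, from the authors' deposited table. Centred on the median gene, with p from fold change over SE, 5 of the 7 were still called. The calls of Irf3 (adjusted p = 0.117) and Irf9 (adjusted p = 0.0909) were lost. That of Irf3 was also lost with p from fold change over SE and no centring (adjusted p = 0.0717). Irf4 is also a lymphocyte gene. Markers of B and plasma cells were lower in iBAT: the authors' deposited table called 10 of 12 as lower and none as higher, at a median of -1.62. Examples are the immunoglobulin genes Igkc (-4.82 ± 0.39) and Ighm (-3.75 ± 0.30) and the joining chain gene Jchain (-4.29 ± 0.37), authors' deposited table. Markers of macrophages and dendritic cells did likewise, with 11 of 12 lower and no rise (median -1.60, authors' deposited table), among them Lyz2 (-2.36 ± 0.27) and Csf1r (-1.84 ± 0.14). The part of immune cells in the Irf4 value was not tested.

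The C/EBP family, basic leucine zipper factors of adipocyte differentiation, was mixed around Cebpb. Cebpd, which acts early in differentiation beside Cebpb, was lower in iBAT at -1.48 ± 0.34 (adjusted p = 1.83e-05, authors' deposited table). Cebpa, the factor of mature adipocytes, was not called at 0.62 ± 0.29 (adjusted p = 0.0537, authors' deposited table) and passed when centred on the median gene (0.72, adjusted p = 0.0348) or among genes with a base mean of at least 50 (adjusted p = 0.045). Cebpg was higher at 0.44 ± 0.17 and Cebpe lower at -2.38 ± 0.87, in the authors' deposited table. Cebpz (0.13 ± 0.15) and Ddit3 (-0.18 ± 0.39) were not called there, in the authors' deposited table.

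Ppargc1a and Ebf2 each had a paralogue that rose with them. Ppargc1b, which encodes PGC-1 beta and shares the mitochondrial role of PGC-1 alpha, stood at 4.93 ± 0.21 in the authors' deposited table (adjusted p = 4.69e-122), while the third member, Pprc1, was not called at -0.18 ± 0.39. Ebf3 stood at 1.91 ± 0.19 (adjusted p = 7.52e-23, authors' deposited table), close to Ebf2. Ebf1, an adipocyte and B cell factor, was called at 0.40 ± 0.18 and Ebf4 at -0.90 ± 0.37, both in the authors' deposited table, and both calls depended on the setting (Ebf1 adjusted p = 0.0503 with p from fold change over SE; Ebf4 adjusted p = 0.0666 when centred).

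The families of Prdm16, Klf11, Ehmt1 and Foxc2 follow. By the authors' deposited table, 3 of 11 measured PRDM paralogues rose, 1 fell and 7 had no call. The closest relative of Prdm16, Mecom, stood at 0.74 ± 0.34 (adjusted p = 0.0453, authors' deposited table), a call lost with p from fold change over SE (adjusted p = 0.0681). Prdm9 stood at 1.69 ± 0.59 and Prdm10 at 1.03 ± 0.32, in the authors' deposited table. Among 15 measured KLF paralogues the authors' deposited table had 2 that rose, Klf9 (1.10 ± 0.35) and Klf13 (0.64 ± 0.20), and 4 that fell, while 9 had no call. Those that fell were Klf14 (-4.27 ± 0.84), the endothelial factor gene Klf2 (-1.02 ± 0.35), Klf6 (-0.99 ± 0.22) and Klf4, which lay between the last pair, in the authors' deposited table. Ehmt2, the partner enzyme of Ehmt1, was lower at -0.89 ± 0.28 (adjusted p = 0.00233), and Foxc1 was lower like Foxc2, at -1.59 ± 0.28 (adjusted p = 3.89e-08), both in the authors' deposited table.

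**Figure D2:**
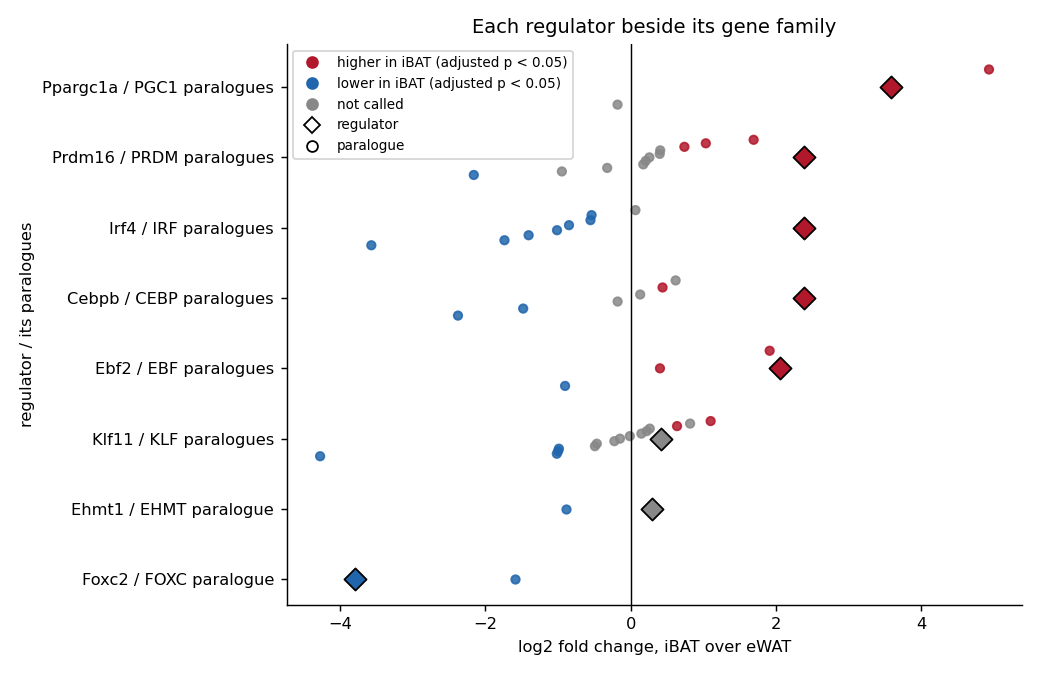
Log2 fold changes, iBAT over eWAT, of the regulators (diamonds) and their paralogues (circles), 1 family a row, from the authors' deposited table; Zfp516 has no row. Irf4 at 2.39 stands to the right of 8 paralogues of which 7 were called lower, and Ppargc1a at 3.58 stands beside Ppargc1b at 4.93.

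The partners of the regulators were counted from a list of 31 coactivators, nuclear receptors and cofactors. The authors' deposited table had 20 of them up in iBAT, 2 down and 9 without a call, at a median of 0.66. The nuclear receptors that PGC-1 alpha activates were among the largest: Ppara, the fatty acid sensor (5.52 ± 0.17), and the estrogen-related receptors Esrrg (3.83 ± 0.55) and Esrra (2.56 ± 0.18), in the authors' deposited table. The thyroid hormone receptor gene Thrb (1.61 ± 0.31) and the retinoid receptor gene Rxrg (1.49 ± 0.23) followed in the authors' deposited table. Another retinoid receptor gene, Rxra, was lower at -0.36 ± 0.15 (adjusted p = 0.0266, authors' deposited table). Its call was lost when centred on the median gene (adjusted p = 0.132). Pparg itself, the receptor common to brown and white adipocytes, was not called at 0.41 ± 0.33 (adjusted p = 0.276, authors' deposited table). Among PRDM16 corepressors Ctbp1 (0.27 ± 0.30) and Ctbp2 (0.07 ± 0.14) were not called, and the demethylase gene Kdm1a (0.45 ± 0.14) and the mediator gene Med1 (0.45 ± 0.14) were higher, per the authors' deposited table. Dpf3, a chromatin remodelling subunit that EBF2 recruits, was higher at 1.50 ± 0.24 (adjusted p = 9.84e-10, authors' deposited table). With a minimum log2 fold change of 1 added, 12 of the 20 were counted.

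Repressors of the brown programme did not share 1 direction. Of 21 such genes in the authors' deposited table, 3 rose, 8 fell and 10 had no call; the median was -0.16 and the share called, 52.4%, was close to the 48% of all genes. Hoxc8, a positional factor that represses Cebpb, was lower in iBAT at -3.54 ± 0.30 (adjusted p = 6.3e-31, authors' deposited table). Nrip1, which opposes PGC-1 alpha, was lower at -1.58 ± 0.31, and Zfp521, an EBF inhibitor, at -1.42 ± 0.18, in the authors' deposited table. Zfp423, which restrains EBF2 in white adipocytes, was not called at -0.36 ± 0.26 (adjusted p = 0.245), nor was Twist1, a partner and inhibitor of PGC-1 alpha, at -0.16 ± 0.26, in the authors' deposited table. The exceptions were Zeb1 (1.11 ± 0.22), Rb1 (0.65 ± 0.18) and Sin3a (0.56 ± 0.16), which were higher, authors' deposited table.

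Of 25 genes for signals that act on the regulators, 12 rose, 4 fell and 9 had no call in the authors' deposited table, at a median of 1.02. Along the adrenergic path the receptor gene Adrb1 (2.75 ± 0.28), the G protein gene Gnas (2.19 ± 0.19), the cyclase gene Adcy3 (3.18 ± 0.32), the kinase gene Prkaca (1.68 ± 0.16) and the transcription factor gene Atf2 (1.64 ± 0.25) were higher, authors' deposited table. The main receptor gene of mouse adipocytes, Adrb3, was lower at -1.23 ± 0.22, and Creb1 was not called at 0.05 ± 0.17, in the authors' deposited table. Dio2, which makes active thyroid hormone, was the largest of the list at 8.01 ± 0.49 (adjusted p = 2.13e-58, authors' deposited table). The growth factor genes Bmp4 (-3.18 ± 0.20) and Bmp7 (-2.84 ± 0.44) were lower, although Bmp7 is known to induce Prdm16 in precursor cells, per the authors' deposited table.

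Among 27 measured targets and markers of brown adipocytes, 22 rose, 3 fell and 2 had no call in the authors' deposited table. Their median there was 5.29. Not every gene on the list is a known target of the 9 regulators. This list holds Ucp1, from which the direction of the table was read, and genes picked as brown markers, so it is not separate evidence of direction. The lipid droplet gene Cidea (9.58 ± 0.13), a gene that PRDM16 induces, and Fabp3, a fatty acid carrier (9.30 ± 0.39), were among the largest, in the authors' deposited table. The 3 that were lower were Cited1 (-4.99 ± 1.08), Epsti1 (-1.80 ± 0.19) and Tmem26 (-1.48 ± 0.70), of which Cited1 and Tmem26 are known as markers of beige rather than classical brown cells, authors' deposited table. The call of Tmem26 was lost with p from fold change over SE (adjusted p = 0.0759).

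Most muscle genes were higher in iBAT. The 16 skeletal muscle markers all rose, by a median of 7.51 and over a range from 3.93 to 17.7 on the log2 scale, in the authors' deposited table. Of 12 genes of muscle fate, 10 rose and 2 had no call, and among those that rose were Mef2c (2.44 ± 0.46) and Mef2d (1.36 ± 0.23), in the authors' deposited table. With p from fold change over SE, the calls of Myf5 (adjusted p = 0.149), Pax7 (adjusted p = 0.0578) and Eya1 (adjusted p = 0.0536) were lost. Centred on the median gene, also with p from fold change over SE, 8 of the 12 were called higher. Myf5 (adjusted p = 0.139) and Pax7 (adjusted p = 0.0527) were not called there either. The myogenic factors that PRDM16 is known to hold down in brown precursors were also called: Myod1 stood at 9.66 ± 2.92 with a base mean of 25.4 and Myog at 10.58 ± 3.49 with 58.7, in the authors' deposited table. These names were chosen after their values were seen, since their base means are below the median of all genes, 342.8. The sum of the muscle markers in single libraries was not at hand, and the part of muscle tissue in the values of Ppargc1a, Prdm16 and the other regulators was not tested. Adipocyte markers went both ways, with 3 of 13 higher and 7 lower (median -0.74, authors' deposited table), and markers of fibroblasts and precursors fell in 9 of 10 cases with no rise (median -0.90, authors' deposited table), or in 4 with a minimum log2 fold change of 1.

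**Figure D3:**
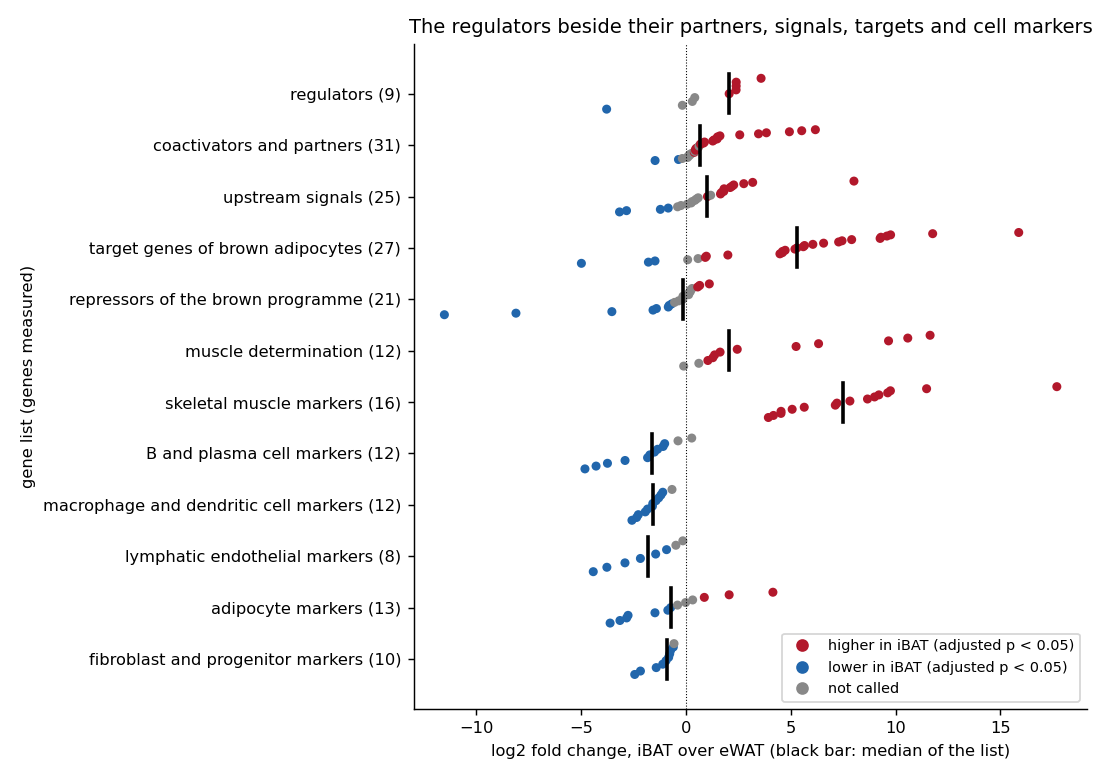
Log2 fold changes, iBAT over eWAT, of every measured gene of each list, from the authors' deposited table; a black bar marks the list's median. The regulators (median 2.06) and the targets and markers of brown adipocytes (5.29) lie to the right together with both muscle lists (2.03 and 7.51). The 3 lists of B cell, macrophage and lymphatic markers lie to the left.

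Promoter sequence was read for the 6 regulators in RefSeq's table of the GRCm38.p6 build (Prdm16, Ppargc1a, Irf4, Klf11, Ehmt1 and Cebpb), taking 250 bases before the listed start. The windows of Ppargc1a and Prdm16 lie inside the gene spans given above, so bases before the outer ends of these spans were not read. The core letters of the cyclic AMP response element, TGACG on either strand, was found in 2 of the 6, Ppargc1a and Cebpb, and in 17.8% of all 32851 promoters of the table. Both genes rose in iBAT, and their windows are shown because they hold these letters, 5′ to 3′ on the gene's own strand with each such core in capitals.
Ppargc1a, chr5:51567726-51567975, minus strand: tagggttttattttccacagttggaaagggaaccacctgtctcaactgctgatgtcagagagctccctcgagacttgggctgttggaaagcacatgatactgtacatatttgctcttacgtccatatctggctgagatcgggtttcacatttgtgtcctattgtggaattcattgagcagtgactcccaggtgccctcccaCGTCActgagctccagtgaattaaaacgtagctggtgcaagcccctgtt
Cebpb, chr2:167688665-167688914, plus strand: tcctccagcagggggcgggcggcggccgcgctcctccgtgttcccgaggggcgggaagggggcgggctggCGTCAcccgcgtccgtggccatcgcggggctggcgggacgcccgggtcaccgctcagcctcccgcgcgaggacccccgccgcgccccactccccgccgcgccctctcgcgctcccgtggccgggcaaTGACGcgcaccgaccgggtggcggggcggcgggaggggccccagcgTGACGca

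The Ppargc1a window held 1 core, on the opposite strand, 49 to 45 bases before the start. The Cebpb window held 3, at 180 to 176, 53 to 49 and 7 to 3 bases before the start, the first of them on the opposite strand. The windows differed in composition, with 48% G and C in Ppargc1a and 81.6% in Cebpb against a median of 52.4% over all promoters. The GC box GGGCGG, found in 32.7% of all promoters, was in 5 of the 6 windows and not in that of Ppargc1a. Irf4 was the only one of the 6 with the TATA box letters TATAAA (12.4% of all promoters), 26 to 21 bases before the start. The full element TGACGTCA, the EBF palindrome (TCCC and GGGA with any 2 bases between) and the IRF repeat (GAAA and GAAA with any 2 bases between) were in none of the 6 windows, which says only that these letters are not there. They were in 1.55%, 0.779% and 2.98% of all promoters.

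Several miRNAs have been described as acting on these regulators. A list of 13 was followed. For Prdm16 it held miR-133a-3p, miR-133b-3p, miR-27a-3p, miR-27b-3p, miR-149-3p, miR-199a-3p and miR-214-3p. It also held miR-155-5p for Cebpb, miR-494-3p for Ppargc1a and miR-196a-5p for Cebpb by way of Hoxc8. The others were miR-193b-3p and miR-365-3p, described as downstream of Prdm16, and miR-193a-3p, a relative of miR-193b-3p. Of the 13, 11 had values, and 10 passed the filter on low counts. Mature sequences from RefSeq (GRCm38.p6) are shown for those the results turn on, with the seed, bases 2 to 8, in capitals.
miR-193b-3p: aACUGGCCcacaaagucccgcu
miR-193a-3p: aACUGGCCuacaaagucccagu
miR-365-3p: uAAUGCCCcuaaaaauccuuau
miR-27b-3p: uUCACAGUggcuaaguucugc
miR-27a-3p: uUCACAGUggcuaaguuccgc
miR-133b-3p: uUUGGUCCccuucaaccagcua
miR-196a-5p: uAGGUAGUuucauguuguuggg
miR-214-3p: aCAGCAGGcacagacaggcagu

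Among the sequences shown, miR-193a-3p and miR-193b-3p share a seed, as do miR-27a-3p and miR-27b-3p, and the seeds of the other 4 differ. The sequence of miR-133a-3p is not shown, so its seed was not compared. Values are counts the authors divided by a size factor for each library, and the reads behind them summed to between 1293407 and 6816555 a library. Between iBAT and eWAT, limma called 6 of the 10 higher and 1 lower, where it called 55% of all 436 tested miRNAs, 25.5% as higher and 29.6% as lower.

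miR-193b-3p, which is described as depending on Prdm16, held 10794, 7708 and 8036 normalized counts in the iBAT libraries and 698, 778 and 669 in eWAT. Every iBAT library was above all 15 white fat libraries, the highest of which held 2118. How many of all tested miRNAs lie above or below every white fat library in this way was not counted. The difference between iBAT and eWAT was 12.4-fold (log2 3.61 ± 0.17 SE; limma, adjusted by Benjamini-Hochberg, adjusted p = 1.02e-10). RefSeq lists the mature miR-365-3p at 2 loci, beside miR-193b-3p on chromosome 16 and beside miR-193a-3p on chromosome 11, and its counts do not tell them apart. It held 15709, 14105 and 17375 in iBAT against 5903, 6621 and 7095 in eWAT. It too was higher in each iBAT library than in all 15 white ones, by 2.41-fold over eWAT (log2 1.26 ± 0.20, limma adjusted p = 7.88e-05). miR-193a-3p, with the same seed as miR-193b-3p, held 813, 669 and 701 in iBAT against 479, 589 and 445 in eWAT. Its difference of 1.44-fold was called (log2 0.53 ± 0.21, limma adjusted p = 0.0414), but the call was lost without iBAT library 1, 2 or 3 or eWAT library 1 or 3 (adjusted p from 0.0554 to 0.136) and with edgeR on recovered reads (adjusted p = 0.0526).

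miR-27b-3p, described as a repressor of Prdm16, was higher in iBAT beside Prdm16 mRNA, which was measured in other libraries from mice of another age. It held 94458, 92488 and 84863 in iBAT and 53708, 47307 and 43419 in eWAT, a 1.88-fold difference (log2 0.92 ± 0.11, limma adjusted p = 7.9e-06). The visceral depot mWAT came close to iBAT with 76915, 86609 and 89567, and 2 of these lay within the range of iBAT. Its seed partner miR-27a-3p was not called, with means of 24853 ± 196 in iBAT and 23800 ± 938 in eWAT (SD, n = 3 each; limma adjusted p = 0.591).

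The muscle miRNAs miR-133a-3p and miR-133b-3p, also described as acting on Prdm16, were higher in iBAT than in eWAT. miR-133a-3p held 3125, 4331 and 2230 in iBAT against 181, 205 and 205 in eWAT (log2 3.98 ± 1.22, limma adjusted p = 0.0126). miR-133b-3p held 142, 181 and 94.9 against 12.3, 9.0 and 11.9 (log2 3.51 ± 1.24, limma adjusted p = 0.0264), a call lost without iBAT library 1 or 2 or any 1 of the 3 eWAT libraries (adjusted p from 0.0547 to 0.0706). Neither was highest in iBAT, since aWAT held 109314, 37738 and 10415 of miR-133a-3p, and within iWAT the 3 libraries ran from 74.9 to 2466. The muscle miRNA miR-1a-3p moved beside them, with 11244, 18215 and 10084 in iBAT, 860, 797 and 832 in eWAT and 440919, 134457 and 59728 in aWAT. The part of muscle tissue in these values was not tested.

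miR-196a-5p, described as lowering Hoxc8 and so releasing Cebpb, was at 0 in all 3 iBAT libraries. In eWAT it held 23.3, 32.9 and 21.3, at least 5.12-fold higher than a floor of 3 reads per iBAT library, and limma called it lower in iBAT (adjusted p = 1.02e-10). In iWAT it held 1109, 1127 and 1242, in cWAT 1240, 1186 and 1029, and in mWAT 591, 668 and 584, while aWAT was low with 4.6, 9.1 and 6.2. RefSeq lists the mature miR-196a-5p on both chromosome 11 and chromosome 15, and its counts do not tell these loci apart. Hoxc8 mRNA was lower in iBAT too, at the -3.54 of the authors' deposited table given above, and Cebpb mRNA was higher. Both mRNAs were measured in other libraries from mice of another age.

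The other miRNAs of the list were not called. miR-214-3p held 286, 446 and 402 in iBAT, below all 15 white libraries, with 499, 538 and 890 in eWAT (log2 -0.74 ± 0.38, limma adjusted p = 0.111). It passed when the fit held iBAT and eWAT libraries alone (adjusted p = 0.0406). miR-155-5p held 180, 165 and 193 in iBAT and 121, 135 and 164 in eWAT (log2 0.37 ± 0.33, limma adjusted p = 0.361). miR-494-3p was at 0 in 2 of 3 iBAT libraries and at 1.8, the worth of 2 reads, in the third, with 5.2, 4.7 and 1.8 in eWAT, too few reads to be tested.

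**Figure D4:**
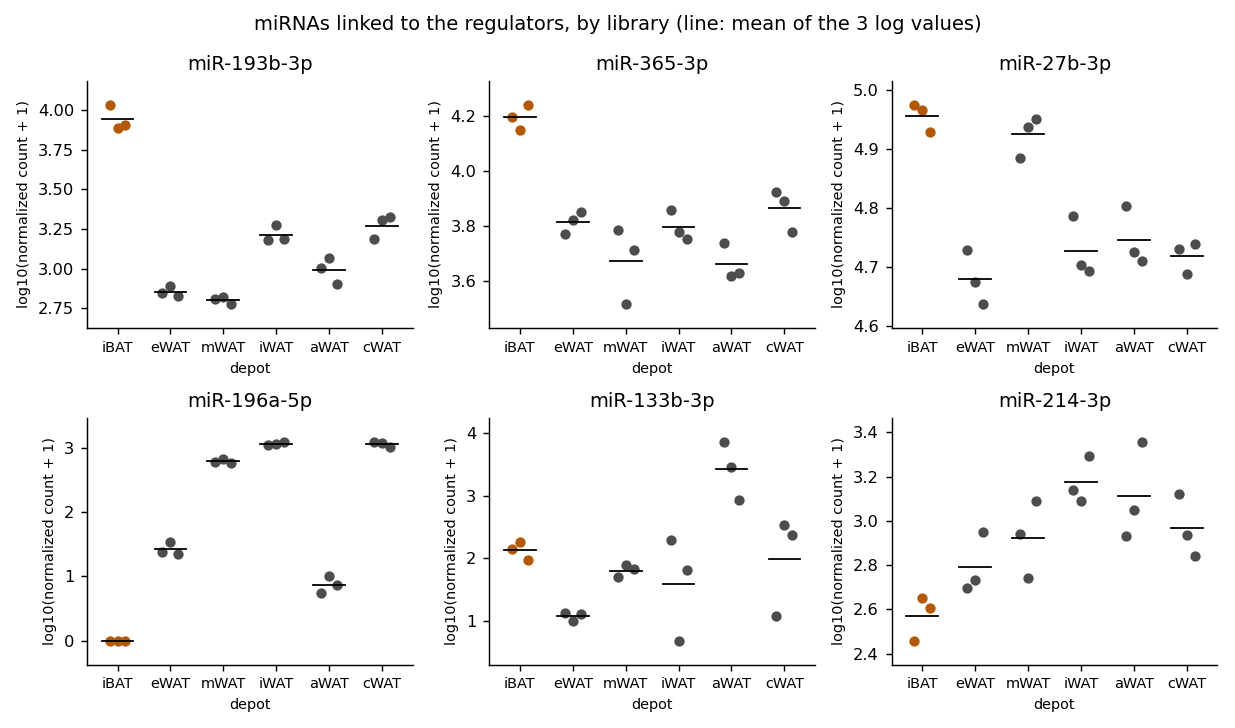
Normalized counts of 6 miRNAs on a log10(count + 1) scale, by depot, with 1 point for each of 3 libraries and a line at the mean of the 3 log values; each panel has its own vertical range. iBAT (orange) lies above every white fat library for miR-193b-3p and miR-365-3p, at 0 for miR-196a-5p and below every white fat library for miR-214-3p.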

How the data were processed

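The mRNA table is the authors' comparison of iBAT with eWAT. Its base mean is a signal the authors made by dividing counts by size factors, and its log2 fold changes, their SEs and its raw and adjusted p-values stand as deposited, per the file headers. Version 0.45.0 of kallisto and the GRCm38 build appear in the submitters' processing notes, with no role given. Ensembl IDs were matched to symbols for 18758 of 18947 genes. For 10.7% of genes the deposited p-value matches, to 0.01 in log10, the one that the fold change and SE give, so the test behind it is unclear. For every regulator the deposited p-value was the smaller of the pair, at a ratio of at most 0.96. Whether the fold changes are moderated (shrunken) estimates is not known. The folds, intervals and computed levels given here do not allow for it. The miRNA signal is counts the authors divided by size factors, and whole reads were recovered in every library (within 0.02 reads). limma 3.58.1 with a mean-variance trend was run on log2 values (pseudocount 1) of the 6 depots together, after edgeR's filterByExpr on recovered reads, which kept 436 of 485 miRNAs; the script was tested on simulated data. edgeR 4.0.16 and DESeq2 1.42.0 on recovered reads were alternatives. Adjusted p-values use Benjamini-Hochberg over all features, threshold 0.05. The members, gene lists and miRNA list were chosen with earlier results of these data known. Named from each list were up to 6 called genes with the largest fold changes and a base mean above the median, all paralogues where wanted, the 9 regulators and the 13 miRNAs; other names in the text were chosen after their values were seen. Intervals assume normal errors. Floors cover counting error only. Some genes that are counted in the lists are not reported here by name.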

Additional observations from a re-analysis of the deposited data

How the results depend on the processing

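The calls of the 6 regulators that passed (5 higher, 1 lower) held with p from fold change over SE, with a threshold of 0.01, with a minimum log2 fold change of 1 and among genes with a base mean of at least 50, and centring on the median gene added Klf11 (0.51). Counts of lists moved with a minimum log2 fold change of 1: coactivators and partners went from 20 to 12 higher and from 2 to 1 lower, and repressors from 3 to 1 higher and from 8 to 5 lower. Under it IRF paralogues went from 7 to 4 lower, KLF paralogues from 4 to 2 lower and from 2 to 1 higher, and fibroblast and progenitor markers from 9 to 4 lower; the small C/EBP, EBF and EHMT families changed by 1 call each way at most. With centring, or with a threshold of 0.01, 1 partner was lower. Centring turned the sign of 2 uncalled genes, Klf1 (to 0.085) and Lipe (to 0.074). Every centred p-value was taken from fold change over SE. The linked miRNAs lower in iBAT went from 1 to 2 when only iBAT and eWAT libraries were fitted. Leaving out 1 iBAT or eWAT library gave 5 to 6 linked miRNAs called in place of 7, with 4 to 5 of them higher and 1 lower. For the mRNA table no paired analysis was possible because it carries no values per library, and no library could be left out. For miRNAs the replicate block gave the same 7 calls among the linked miRNAs and 247 against 240 over all. Deviations of same-numbered iBAT and eWAT libraries correlated at 0.028, -0.091 and 0.018. Low values cannot tell whether libraries of the same number came from the same mouse, since differences between libraries could hide a pairing. edgeR called 6 and DESeq2 7 of the linked miRNAs. The depth of the mRNA libraries is unknown.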

Other observations

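Beyond the list of linked miRNAs, close relatives were looked at after the values were seen. miR-199b-3p, which RefSeq lists with the same mature sequence as miR-199a-3p, held 2495, 3103 and 2980 normalized counts in iBAT and 4411, 4258 and 5132 in eWAT, and was called lower in iBAT (log2 -0.69 ± 0.14 SE, limma adjusted p = 0.000892, n = 3 each). All 15 white fat libraries were above the 3 iBAT libraries. miR-196b-5p held 7.2, 1.8 and 3.5 in iBAT against 63.9, 113 and 72.3 in eWAT and followed miR-196a-5p in being highest in mWAT, iWAT and cWAT (means of 2156, 1345 and 1062) and lower in aWAT (101). miR-206-3p, another muscle miRNA, held 106, 218 and 121 in iBAT, 5.2, 2.6 and 1.2 in eWAT and 4181, 1949 and 1352 in aWAT.

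Some lineage factors within the lists showed larger fold changes than any of the 9 regulators, and they were named after their values were seen. Tbx15, a positional factor, stood at 6.17 ± 0.29 and Zic1 at 7.28 ± 0.28 in the authors' deposited table. In the same authors' deposited table Lhx8 stood at 11.76 ± 3.03, while Tcf21 stood at -11.53 ± 3.12 and Hoxc10 at -8.12 ± 2.80. These 3 had the wider errors and base means of 85.6, 121 and 16.7 in the authors' deposited table, against 287.7 for Tbx15 and 509 for Zic1.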
